A study of Mus musculus with 32 samples.

Results

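The genes described here encode the hydrolases, membrane proteins, proton pump and main regulators of the lysosome. Of the 42 genes named for the set, 40 had a probe set annotated to that gene alone, out of 18193 such genes on the array. Where a gene had several probe sets, the one with the highest mean over the 24 total, polysomal and monosomal arrays was used. Cd63 and Atp6v0c were not analysed here. Ctss (cathepsin S, a protease of antigen-presenting cells) ran from 3.79 to 4.38 over all 32 arrays and did not pass the filter on low signals. The remaining 39 genes were tested: 8 cathepsins, 14 other hydrolases or their activators, 6 proteins of the lysosomal membrane and of cholesterol export, 3 subunits of the V0 and 6 of the V1 sector of the proton pump, and the regulators Tfeb and Grn. The genes were named by function, with no rule on a measured difference.

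E1KD cells, the derivative of NMuMG in which hnRNP E1 was silenced by short hairpin RNA, and the parental NMuMG mouse mammary epithelial line were each grown with TGFβ2 (5 ng/ml, 24 h) or without it. RNA was taken from unfractionated cells (total RNA) and from the polysomal and monosomal pools of a sucrose gradient. The polysomal pool holds translated mRNA. The monosomal pool joins the fractions of ribosomal subunits and single ribosomes, which the authors call non-translating. NMuMG cells with and without TGFβ also gave immunoprecipitates with α-hnRNP E1 or control IgG. Each of the 16 conditions had 2 arrays. E1KD is 1 derived line and was set against its parental line, so that everything else that differs between the lines cannot be told apart from the knockdown. The methods call the 2 samples of a condition independent, without saying whether they were separate cultures, and the p-values reflect the spread among these samples alone. All levels and differences below are log2 signals of one probe set. A level says nothing of the level of another gene. A gene is called higher or lower at an adjusted p under 0.05.

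Lysosomes break down proteins, glycans, lipids and glycogen with many hydrolases that work in acid. The vacuolar ATPase acidifies the lumen. Its V1 sector splits ATP in the cytosol, and its V0 sector carries protons through the membrane. Most hydrolases reach the lysosome with a mannose 6-phosphate tag. The transcription factor TFEB raises the expression of many of these genes together through E-boxes in their promoters known as CLEAR elements.

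Pcbp1, which encodes hnRNP E1, was at 9.55 and 9.33 in total RNA of TGFβ-treated E1KD cells and at 10.79 and 10.86 in untreated E1KD cells, against 13.14 and 13.14 in TGFβ-treated and 13.08 and 13.12 in untreated NMuMG cells. The E1KD arrays were thus below every NMuMG array. Within E1KD cells Pcbp1 was lower with TGFβ than without it. The part of this in the TGFβ differences of E1KD cells was not tested. Of 10 mammary epithelial markers, 8 passed the filter on low signals. Of 8 leukocyte markers 3 passed and of 6 fibroblast markers 1 passed. The mean level of the 8 leukocyte markers lay between 5.32 and 6.22 in every array. The mean of 8 mesenchymal markers differed between the lines, at 10.64 to 10.70 in untreated E1KD total RNA and 9.10 to 9.15 in untreated NMuMG total RNA, and its part in the differences between the lines was not tested.

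The E-box that TFEB is known to bind can be looked for in the promoters of the set. In RefSeq promoter windows (GRCm38.p6, from 250 bases before to 50 bases after the start of the gene) the palindromic E-box core CACGTG stood in 14 of the 35 genes of the set that had a window, which is 40%. It stood in 8.09% of all 27025 genes with a window and in 7.15% of all 32851 windows. Lists of related genes outside the set also carried it. Their shares were 38.5% of 13 genes of mannose 6-phosphate sorting, 31.2% of 16 further membrane proteins and 23.1% of 13 lysosome regulators. They were 21.4% of 14 autophagy genes, 21.1% of 19 further hydrolases and activators and 10% of 10 further pump subunits. Each window below holds 30 bases on the strand of the gene with the core in capitals, and where a gene has several it is the farthest upstream of those with room for the window. The genes shown are 6 whose total RNA changed with TGFβ in E1KD cells and 3 that did not pass in that comparison.
Mcoln1 (chr8:3500436-3500465, + strand): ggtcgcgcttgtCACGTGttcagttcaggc
Gaa (chr11:119267811-119267840, + strand): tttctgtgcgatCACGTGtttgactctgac
Naglu (chr11:101070009-101070038, + strand): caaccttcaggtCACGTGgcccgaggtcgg
Atp6v0b (chr4:117887348-117887377, - strand): gtgcgcgggggtCACGTGgggtcggcgcat
Lamp1 (chr8:13159088-13159117, + strand): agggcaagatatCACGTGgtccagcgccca
Gla (chrX:134601215-134601244, - strand): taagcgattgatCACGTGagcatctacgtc
Ctsd (chr7:142387908-142387937, - strand): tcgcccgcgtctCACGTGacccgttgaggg
Atp6v0d1 (chr8:105566050-105566079, - strand): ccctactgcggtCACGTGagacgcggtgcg
Atp6v1a (chr16:44139373-44139402, - strand): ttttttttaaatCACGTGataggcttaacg
Lamp1 carried 4 cores in its window, and Mcoln1, Atp6v0b, Gla and Ctsd carried 2 each. The core shown began 71 bases before the start in Mcoln1, 140 in Gaa, 73 in Naglu, 36 in Atp6v0b, 61 in Lamp1, 227 in Gla, 98 in Ctsd, 3 in Atp6v0d1 and 131 in Atp6v1a. The match is of letters only and names no bound factor. Among genes of the set with a window, the core stood in 5 of 12 whose total RNA fell with TGFβ in E1KD cells, 1 of 2 that rose and 8 of 18 that did not pass.

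The first comparison asked how the silenced line differed from its parent before any TGFβ. In untreated total RNA 8 of the 39 genes were higher in E1KD cells (20.5%, against 15.8% of all 25432 probe sets tested) and 9 were lower (23.1%, against 13.5%). The lysosomal set as a whole did not move one way: its median difference was 0.13, and that of all probe sets was -0.02. In bulk RNA, fewer cells with a transcript and less of it per cell cannot be told apart. With scaling on Actb and Gapdh the split was 13 higher and 8 lower.

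The differences of 2 genes were far beyond the rest. Hexa, the α subunit of the β-hexosaminidase that degrades GM2 ganglioside, had 11.64 and 11.57 in untreated E1KD cells and 5.85 and 5.84 in untreated NMuMG cells, a difference of 5.76 (SE 0.14, adjusted p = 4.09e-14) or 54.2-fold. Ctsh, the aminopeptidase cathepsin H, had 8.57 and 8.76 in E1KD cells and 4.83 and 4.67 in NMuMG cells, a difference of 3.92 (SE 0.12, adjusted p = 1.1e-12). The median of all signals in the series was 5.52, so that in NMuMG total RNA Hexa was near it. Ctsh was below it there, passed the filter on 16 arrays of which 12 were of E1KD cells, and so has no measured fold. A second Ctsh probe set was higher in untreated E1KD cells by 3.17. Hexa has 1 probe set. The polysomal pool of untreated cells held Hexa at 12.32 and 12.48 in E1KD and 6.90 and 7.20 in NMuMG, so that the gap between the lines was also there in translated RNA.

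**Figure D1:**
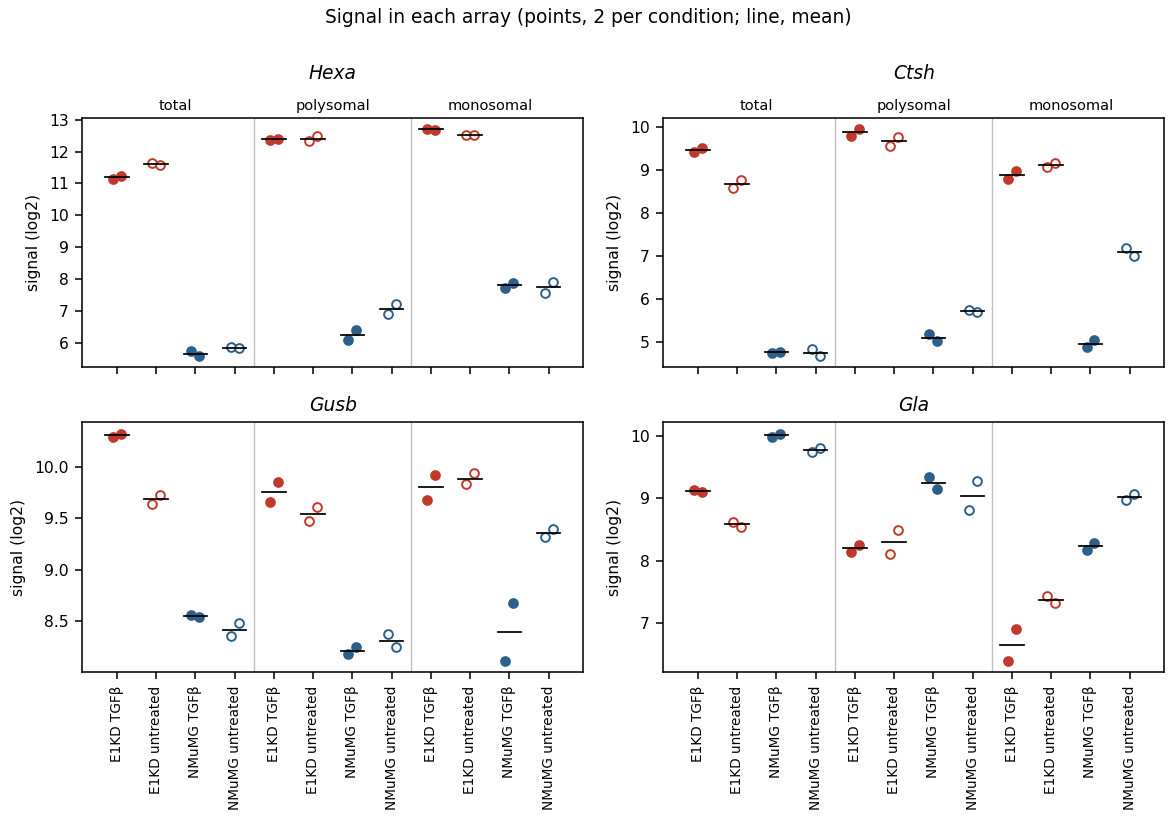
Log2 signals of Hexa, Ctsh, Gusb and Gla (vertical axes) in the total, polysomal and monosomal arrays, with 2 points per condition and a line at the mean. Filled points are TGFβ-treated and open points untreated cells. E1KD arrays (red) lie above all NMuMG arrays (blue) for Hexa, Ctsh and Gusb, and Gla is lower in E1KD total RNA.

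Among the other genes that were higher, Gusb (β-glucuronidase) differed by 1.26 (SE 0.15), with 9.64 and 9.73 in untreated E1KD cells and 8.36 and 8.48 in untreated NMuMG cells. Atp6v0d1, the V0 subunit that couples to the rotor stalk, had 12.20 and 12.08 in E1KD cells and 11.15 and 11.32 in NMuMG cells. Psap, the precursor of the saposins that present sphingolipids to their hydrolases, had 12.57 and 12.67 in E1KD cells and 11.76 and 11.82 in NMuMG cells. The arrays of the lines did not overlap for any of these 3 genes. That held for 37 of the 39 genes in this comparison, so it does not set these 3 apart. The smaller increases were those of Man2b1 (lysosomal α-mannosidase, 0.60), Mcoln1 (the cation channel mucolipin 1, 0.44) and Tpp1 (tripeptidyl peptidase 1, 0.44).

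The genes that were lower in untreated E1KD cells included 2 of the enzymes that degrade heparan sulfate. Sgsh (sulfamidase) had 5.70 and 5.91 in E1KD cells and 6.80 and 6.49 in NMuMG cells (difference -0.84, SE 0.22, adjusted p = 0.00717). Naglu (N-acetyl-α-glucosaminidase) had 7.43 and 7.46 in E1KD cells and 8.16 and 8.24 in NMuMG cells (difference -0.76). Gla (α-galactosidase A) had 8.63 and 8.55 in E1KD cells and 9.75 and 9.81 in NMuMG cells, a difference of -1.19 (SE 0.17, adjusted p = 4.88e-05), while its second probe set, of lower signal, gave 0.51 and did not pass. Neu1, the lysosomal sialidase, had 9.46 and 9.63 in E1KD cells and 10.22 and 10.32 in NMuMG cells (difference -0.72).

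Tfeb itself was among the lower genes. It had 6.93 and 6.82 in untreated E1KD cells and 7.56 and 7.56 in untreated NMuMG cells, a difference of -0.69 (SE 0.12, adjusted p = 0.000297). Grn, the gene of the lysosomal and secreted glycoprotein progranulin, had 12.79 and 12.83 in E1KD cells and 12.70 and 12.66 in NMuMG cells and did not pass (adjusted p = 0.301). Ctsa (the protective protein of β-galactosidase and sialidase), Ctsc, Ctsz and the V0 subunit Atp6v0a1 were lower by 0.50 to 0.68. None of the 6 V1 subunits passed, with differences from -0.14 to 0.33.

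After TGFβ the gap between the lines leaned down. In TGFβ-treated total RNA 5 of the 39 genes were higher in E1KD cells (against 14.7% of all probe sets) and 15 were lower (38.5%, against 12.5%). Hexa (5.54), Ctsh (4.70), Gusb (1.76), Atp6v0d1 (0.63) and Atp6v1a, the catalytic V1 subunit (0.47), were the higher ones. Naglu showed the largest decrease, with 6.79 and 6.70 in TGFβ-treated E1KD cells and 8.37 and 8.45 in TGFβ-treated NMuMG cells (difference -1.67, SE 0.17, adjusted p = 1.82e-06). Npc1, which exports cholesterol from the lysosome, followed with -0.93, Gla with -0.89, Ctsa with -0.85 and Gaa (acid α-glucosidase, which degrades glycogen) with -0.83. Ctsb, the cysteine protease cathepsin B, differed by -0.70, and of its 4 other probe sets 3 passed as lower and 1, of low signal, as higher (0.57).

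TGFβ alone changed little in the parental line. In total RNA of NMuMG cells none of the 39 genes rose, while 3% of all probe sets did, and 1 fell, against 2.43% of all probe sets. An unadjusted p under 0.05 was reached by 4 genes. Neu1 fell by 0.69 (SE 0.18, adjusted p = 0.0283), with 9.53 and 9.62 in TGFβ-treated cells and 10.22 and 10.32 in untreated cells. That call was lost without any 1 of the 4 arrays compared, while a second Neu1 probe set of lower signal fell by 0.52. A second probe set of Gaa also fell (-0.49), where the main one gave -0.36 and did not pass, and both other probe sets of Ctsz fell (-0.41 and -0.35), where the main one gave -0.25 and did not pass. Sgsh had 6.04 and 5.75 in TGFβ-treated cells and 6.80 and 6.49 in untreated cells and did not pass (adjusted p = 0.057). Neither Ctsl nor Ctsd passed. Ctsl, the cysteine protease cathepsin L, had 13.95 and 14.02 with TGFβ and 13.71 and 13.75 without it (adjusted p = 0.499). Ctsd, the aspartic protease cathepsin D, had 12 and 11.93 with TGFβ and 12 and 12.03 without it (adjusted p = 0.948). The median difference was -0.05 for the set and 0.00 for all probe sets.

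In E1KD cells the same treatment lowered many of these transcripts. In their total RNA 15 of the 39 genes fell (38.5%, against 9.75% of all probe sets) and 3 rose (7.69%, against 11.4%). The median difference was -0.29 for the set and -0.02 for all probe sets, and 29 of the 39 differences were below 0. Most of the decrease lay in 2 roles, with 4 of 6 genes of the membrane and of cholesterol export and 7 of 14 hydrolases and activators outside the cathepsins. Elsewhere 1 of 8 cathepsins, 1 of 3 V0 and 1 of 6 V1 subunits and Grn fell. Of the cathepsins 1 also rose, and their median was -0.08. Without the second untreated E1KD array 7 genes fell and 2 rose. The mean of the 8 mesenchymal markers was also lower, at 10.09 to 10.10 in TGFβ-treated and 10.64 to 10.70 in untreated E1KD total RNA, and its part in the decrease was not tested.

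Npc1 fell most. It had 8.06 and 7.90 in TGFβ-treated E1KD cells and 9.36 and 9.16 in untreated E1KD cells, a difference of -1.28 (SE 0.18, adjusted p = 8.98e-05) or 2.43-fold. Mcoln1 had 9.23 and 9.13 with TGFβ and 10.34 and 10.29 without it, a difference of -1.13 (SE 0.10, adjusted p = 8.73e-07), and its second probe set fell by 0.82. Gaa had 8.72 and 8.62 with TGFβ and 9.73 and 9.68 without it, a difference of -1.03 (SE 0.23, adjusted p = 0.00436), and its second probe set fell by 0.83. In each of these 3 genes both TGFβ-treated arrays were below both untreated arrays. The arrays of the 2 treatments did not overlap, in either direction, for 36 of the 39 genes, so this does not set the 3 apart.

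The enzymes of glycan and protein breakdown followed with smaller decreases. Naglu had 6.79 and 6.70 with TGFβ and 7.43 and 7.46 without it (difference -0.70, adjusted p = 0.00753). Ctsb had 11.51 and 11.54 with TGFβ and 12.13 and 12.16 without it (difference -0.62, adjusted p = 0.000128). Man2b1, Tpp1, Psap, Lipa (the acid lipase of cholesteryl esters and triglycerides) and Hexa fell by 0.41 to 0.60. Npc2, the soluble partner of Npc1 in cholesterol export, fell by 0.35 and Grn by 0.29. Lamp1, the main glycoprotein of the lysosomal membrane, had 12.79 and 12.84 with TGFβ and 13.08 and 13.05 without it, and its call (adjusted p = 0.0462) was lost without any 1 of 20 arrays. Lamp2 and Ctsz did not pass on their main probe sets (0.20 and -0.37), but 1 of 3 other Lamp2 probe sets (-0.85) and both others of Ctsz (-0.60 and -0.47) fell.

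Of the pump, Atp6v1b2, a nucleotide-binding V1 subunit, had 10.71 and 10.71 in TGFβ-treated E1KD cells and 11.25 and 11.24 in untreated E1KD cells (difference -0.54, SE 0.09, adjusted p = 0.000659). Atp6v0b, a proteolipid of the proton-carrying ring, had 11.37 and 11.29 with TGFβ and 11.83 and 11.90 without it (difference -0.54). The other 7 subunits did not pass, with differences from -0.39 to 0.14. Tfeb had 7.02 and 6.98 with TGFβ and 6.93 and 6.82 without it, and did not pass (adjusted p = 0.54).

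The 3 genes that rose were Ctsh, Gusb and Gla. Ctsh had 9.42 and 9.50 in TGFβ-treated E1KD cells and 8.57 and 8.76 in untreated E1KD cells (difference 0.80, SE 0.12, adjusted p = 0.000183). Gusb had 10.29 and 10.32 with TGFβ and 9.64 and 9.73 without it (difference 0.62), and its second probe set rose by 0.79. Gla had 9.14 and 9.10 with TGFβ and 8.63 and 8.55 without it (difference 0.53, adjusted p = 0.0352), but its second probe set gave -0.54, so that the mean of both was 0.00.

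**Figure D2:**
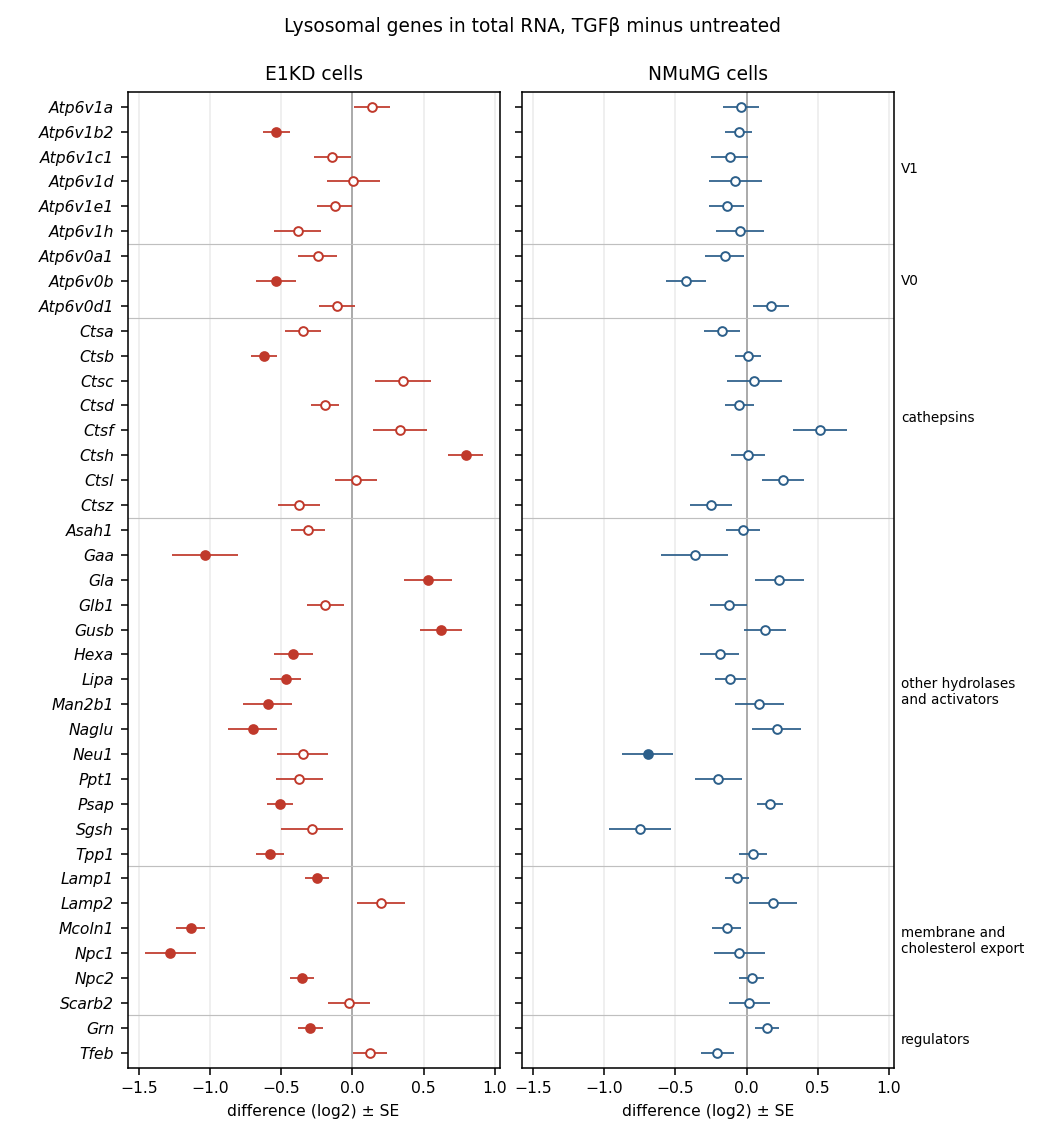
Difference in total RNA, TGFβ-treated minus untreated (log2, horizontal axis, bars of 1 SE), for each of the 39 genes (vertical axis, grouped by role) in E1KD cells (left) and NMuMG cells (right). Filled points passed at an adjusted p under 0.05. In E1KD cells 15 genes lie to the left and pass, with Npc1 at -1.28, and in NMuMG cells 1 gene passes.

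The difference between the lines in this change was tested as an interaction. TGFβ lowered 9 genes more in E1KD cells than in NMuMG cells (23.1%, against 5.69% of all probe sets) and raised 1 gene more (against 5.76%). Npc1 differed by -1.23, Mcoln1 by -0.99, Naglu by -0.91, Psap by -0.68, Ctsb by -0.63 and Tpp1 by -0.62, and Ctsh, below 5.52 in NMuMG total RNA, differed by 0.79. The count of 10 was 6 without either array of the NMuMG total RNAs, either untreated E1KD array or the first TGFβ-treated E1KD array. The calls of Atp6v1b2, Grn, Npc2 and Naglu were lost without any 1 of 7 to 20 arrays. This test shares its untreated arrays with the comparison of the untreated lines.

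Other lysosomal genes give the setting for this decrease. Of 23 further hydrolases and activators tested, 6 fell and 1 rose in E1KD total RNA with TGFβ, with a median of -0.36. The largest change there was that of Dpp7 (dipeptidyl peptidase 7), which fell by 1.41. Of 18 further membrane proteins 6 fell and 1 rose, with Cd68 falling by 1.23. Of 9 further pump subunits 3 fell and none rose. The 16 genes of mannose 6-phosphate tagging and sorting split evenly, with 2 higher and 2 lower and a median of -0.05. Of 14 regulators of the lysosome 4 fell and none rose, and Rragd, a small GTPase that recruits mTORC1 to the lysosome, fell by 2.48. Rragd was also higher in untreated E1KD cells than in untreated NMuMG cells, by 5.81. Of 20 autophagy genes 4 fell and 2 rose. Over all probe sets 9.75% fell and 11.4% rose. In NMuMG total RNA 1 of the 23 further hydrolases and activators rose and 1 fell, and none of the 14 regulators passed.

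The second part of the design asked which transcripts moved between the monosomal and the polysomal pool. RMA scales the arrays to each other, although the medians of the deposited arrays still ran from 5.36 to 5.70, so a difference between pools is relative to the other transcripts and not an amount of RNA. In untreated NMuMG cells 22 of the 39 genes were lower in the polysomal than in the monosomal pool (56.4%, against 41.9% of all probe sets) and 7 were higher (17.9%, against 29.3%). The median difference was -0.56 for the set and -0.14 for all probe sets. With quantile normalization 19 were lower and 11 higher, and the sign of Naglu turned, from -0.57 to 0.06.

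All 6 V1 subunits of the set were lower in the polysomal pool of untreated NMuMG cells. Another Atp6v1e1 probe set, of lower signal, was higher by 0.615, against -1.03 for the main one. Atp6v1h, a V1 subunit that regulates ATP hydrolysis, had 8.88 and 8.54 in the polysomal pool and 10.38 and 10.45 in the monosomal pool (difference -1.71, SE 0.17, adjusted p = 2.32e-07). Atp6v1b2 had 9.52 and 9.67 in the polysomal pool and 10.87 and 10.78 in the monosomal pool (difference -1.23). Atp6v1a had 9.09 and 8.62 in the polysomal pool and 10.08 and 10.05 in the monosomal pool (difference -1.21). None of the 3 V0 subunits of the set was lower there, and Atp6v0d1 was higher by 0.49, with 12.38 and 12.19 in the polysomal pool and 11.76 and 11.83 in the monosomal pool. The further subunits on the array did not follow this division: of 4 other V1 subunits 2 were higher and 1 lower, and of 3 other V0 subunits 2 were lower, with Atp6v0a2 at -1.28.

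The same pools were compared after TGFβ. In TGFβ-treated NMuMG cells 14 of the 39 genes were higher in the polysomal pool (35.9%, against 27.6% of all probe sets) and 11 were lower (28.2%, against 22.1%). Of the 6 V1 subunits of the set 4 were higher and none was lower, while of 4 other V1 subunits none was higher and 2 were lower, with Atp6v1a at 9.04 and 8.98 in the polysomal pool and 8.15 and 8.11 in the monosomal pool. Atp6v0b had 11.61 and 11.60 in the polysomal pool and 13.09 and 12.77 in the monosomal pool (difference -1.32, SE 0.14, adjusted p = 6.28e-07), and Atp6v0d1 was lower by 0.59.

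**Figure D3:**
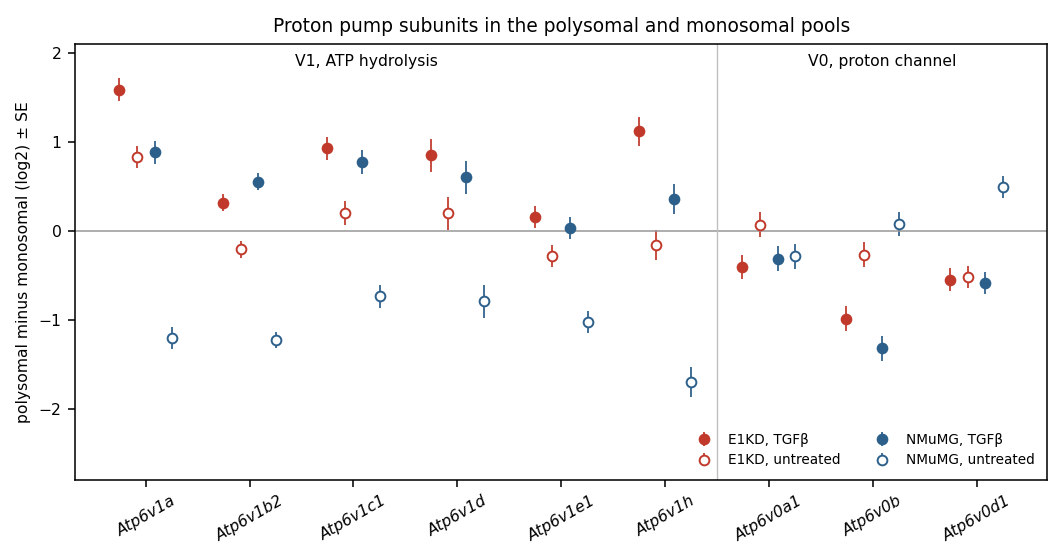
Polysomal minus monosomal difference (log2, vertical axis, bars of 1 SE) of 6 V1 and 3 V0 subunits of the proton pump (horizontal axis) in E1KD cells (red) and NMuMG cells (blue), with TGFβ (filled) and without it (open). Untreated NMuMG cells lie below 0 for each V1 subunit shown, down to -1.71 for Atp6v1h, and are the highest points for Atp6v0b and Atp6v0d1.

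The move between pools with TGFβ was measured as a polysome shift, for which the gap between polysomal and monosomal signal in untreated cells was subtracted from that in TGFβ-treated cells. In NMuMG cells 21 of the 39 genes shifted up (53.8%, against 40.1% of all probe sets) and 12 shifted down (30.8%, against 30.3%). The median shift was 0.58 for the set and 0.09 for all probe sets. With so many of all probe sets past the threshold, a call by itself does not set a gene apart, and the sizes are given for that reason.

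All 6 V1 subunits of the set shifted up, by 2.09 for Atp6v1a, 2.06 for Atp6v1h, 1.78 for Atp6v1b2, 1.51 for Atp6v1c1, 1.40 for Atp6v1d and 1.06 for Atp6v1e1 (SE 0.13 to 0.27). The V0 subunits Atp6v0b and Atp6v0d1 shifted down, by -1.40 (SE 0.20) and -1.07 (SE 0.18), and Atp6v0a1 did not pass (-0.02, adjusted p = 0.914), while its other 2 probe sets went opposite ways (1.63 and -1.01). The other probe sets of Atp6v1a, Atp6v1b2 and Atp6v0b that passed had the same sign. The division was not one of sectors throughout, as the further V1 subunits Atp6v1f and Atp6v1e2 shifted down, by -1.11 and -0.95, and the accessory protein Atp6ap2 shifted up by 1.42.

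Of the cathepsins 5 shifted up and 2 down. Ctsc, a dipeptidyl peptidase that activates granule proteases, had 9.33 and 9.38 in the polysomal pool of TGFβ-treated NMuMG cells and 8.48 and 8.85 in the monosomal pool. In untreated NMuMG cells Ctsc had 9.41 and 8.57 in the polysomal pool and 11.08 and 11.13 in the monosomal pool. Its shift of 2.81 (SE 0.28, adjusted p = 2.57e-07) was the largest of the set. This SE uses the pooled spread, while the 2 untreated polysomal arrays of Ctsc had a standard deviation of 0.59. Ctsl shifted up by 2.23, Ctsb by 1.23 and Ctsf by 1.05, where Ctsf had 5.87 and 5.60 in the untreated polysomal pool, close to 5.52. Ctsh is the fifth, with a fitted shift of 1.50 that rests on signals below 5.52 in both pools of TGFβ-treated NMuMG cells, and its size is therefore not a measurement. Ctsd shifted down by -0.52 and Ctsa by -0.43. Of 4 other Ctsb probe sets 3 shifted up and 1, of low signal, shifted by -1.47, and a second Ctsf probe set gave -0.60 and did not pass. Ctsh in the monosomal pool of untreated NMuMG cells, with a mean of 7.09, stood above the mean of 4.75 in NMuMG total RNA.

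Of the other hydrolases 7 shifted up and 5 down. Lipa had 9.60 and 9.34 in the polysomal pool of TGFβ-treated NMuMG cells and 8.62 and 8.69 in the monosomal pool. In untreated NMuMG cells Lipa had 8.98 and 9.02 in the polysomal pool and 10.50 and 10.48 in the monosomal pool, which gave a shift of 2.31 (SE 0.15, adjusted p = 5.43e-09). Ppt1 (palmitoyl-protein thioesterase 1) shifted by 1.67, Asah1 (acid ceramidase) by 1.49 and Tpp1 by 1.18, and of 2 other Ppt1 probe sets 1 shifted by 1.77 and 1, of low signal, by -0.69.

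Gaa went the other way. It had 10.02 and 9.86 in the polysomal pool of TGFβ-treated NMuMG cells and 11.06 and 10.46 in the monosomal pool, against 10.39 and 11.39 in the polysomal and 9.78 and 9.47 in the monosomal pool of untreated NMuMG cells. Its shift was -2.08 (SE 0.33, adjusted p = 3.97e-05), and its second probe set gave -2.19. This SE uses the pooled spread. The standard deviation of the 2 Gaa arrays was 0.71 in the untreated polysomal and 0.42 in the TGFβ-treated monosomal pool. Naglu shifted by -1.72, Neu1 by -1.23, Hexa by -0.86 and Sgsh by -0.77. The other 2 Neu1 probe sets, both of lower signal, shifted by -1.64 and 0.45. Among genes of the set with a promoter window the CACGTG core stood in 8 of 12 that shifted down, 5 of 14 that shifted up and 1 of 6 that did not pass. For the difference between the untreated lines it stood in 4 of 9 lower in E1KD cells, 2 of 7 higher and 8 of 16 that did not pass. These shares were not tested.

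On the membrane, Lamp2 shifted by 1.34, Npc1 by 0.90 and Lamp1 by 0.58, while Mcoln1 shifted by -1.21. Scarb2, the receptor that carries β-glucocerebrosidase to the lysosome, and Npc2 did not pass, although a second Scarb2 probe set shifted by 1.66. Both regulators shifted down. Tfeb had 8.17 and 7.92 in the polysomal pool of TGFβ-treated NMuMG cells and 8.84 and 8.74 in the monosomal pool, against 7.97 and 8.23 in the polysomal and 7.88 and 7.84 in the monosomal pool of untreated NMuMG cells, a shift of -0.99 (SE 0.17, adjusted p = 7.63e-05). Grn shifted by -0.60.

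As a median over the set, TGFβ changed the monosomal pool of NMuMG cells more than the polysomal pool. TGFβ-treated minus untreated NMuMG cells had a median difference of -0.50 in the monosomal pool over the 39 genes and of -0.06 in the polysomal pool, against -0.04 and 0.02 over all probe sets. For the 6 V1 subunits the medians were -1.23 in the monosomal and 0.27 in the polysomal pool. For the 3 V0 subunits they were 0.55 and -0.35. These medians were not tested, and they join genes that shifted up with genes that shifted down. In the monosomal pool 27 of the 39 genes were below 0 and 12 above, and in the polysomal pool 22 and 17. Not every gene followed the medians, as Ctsa changed by -0.35 in the monosomal and -0.775 in the polysomal pool.

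**Figure D4:**
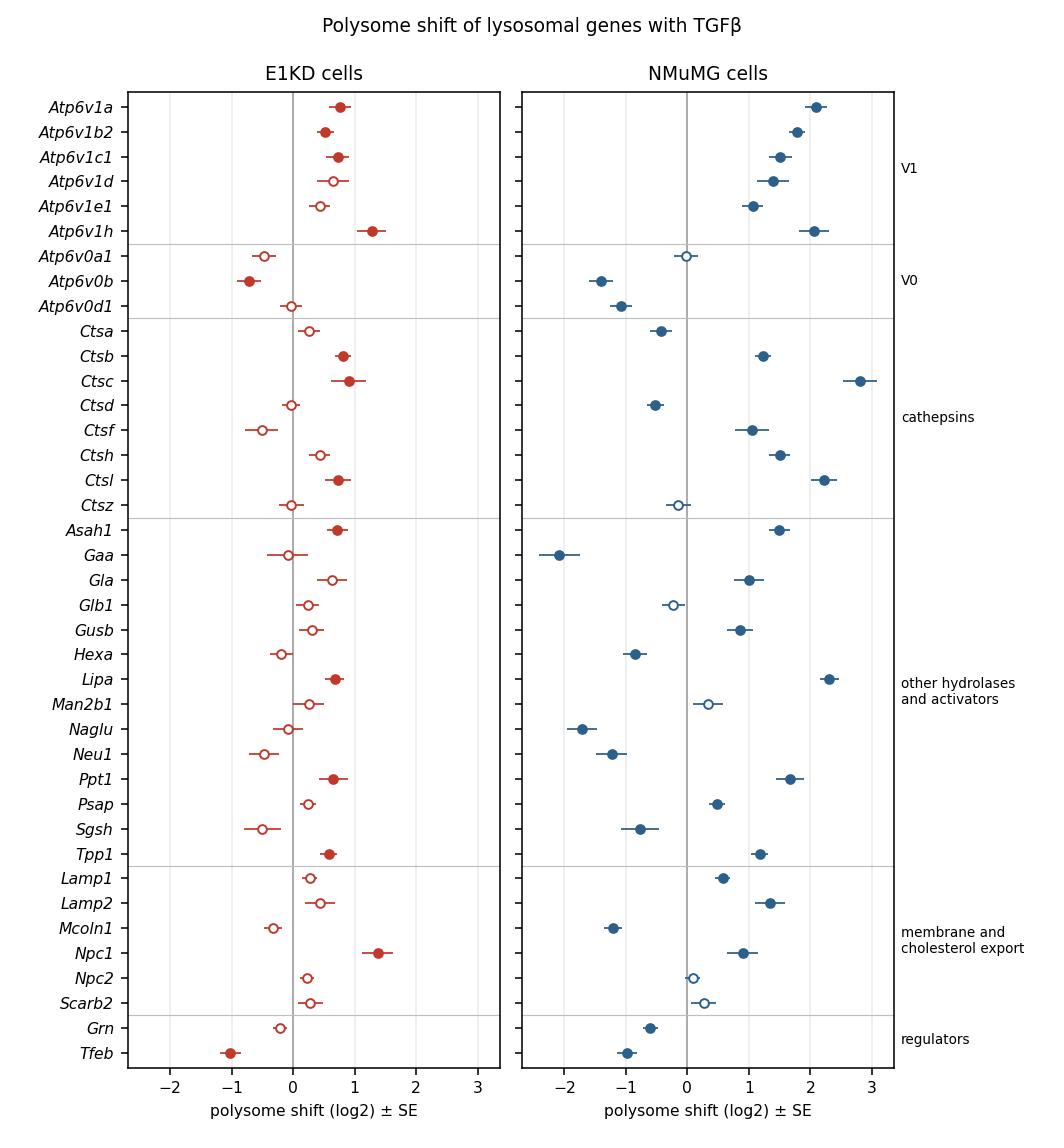
Polysome shift with TGFβ (log2, horizontal axis, bars of 1 SE) of the 39 genes (vertical axis, grouped by role) in E1KD cells (left) and NMuMG cells (right). Filled points passed at an adjusted p under 0.05. NMuMG cells range from -2.08 (Gaa) to 2.81 (Ctsc) and E1KD cells from -1.02 (Tfeb) to 1.38 (Npc1).

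In E1KD cells the pools differed less before TGFβ. In untreated E1KD cells 7 of the 39 genes were lower in the polysomal than in the monosomal pool (17.9%, against 18.2% of all probe sets) and 4 were higher (10.3%, against 16.8%). The median was -0.12 for the set. Neu1 was the lowest of them, with 8.88 and 9.10 in the polysomal pool and 10.94 and 10.77 in the monosomal pool, followed by Naglu (-1.56), Grn and Ctsd (-0.86). Gla, Atp6v1a, Ctsh and Npc2 were higher. In TGFβ-treated E1KD cells 15 genes were higher in the polysomal pool (38.5%, against 34.0% of all probe sets) and 10 were lower (25.6%, against 26.6%). There 5 of 6 V1 subunits of the set were higher and all 3 V0 subunits of the set lower. Of 9 further pump subunits none was higher and 6 were lower, among them the V1 subunit Atp6v1e2 (-0.65). Another Atp6v0a1 probe set was higher by 0.925, against -0.41 for the main one.

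The polysome shift of E1KD cells was upward for 12 genes (30.8%, against 20.9% of all probe sets) and downward for 2 (5.13%, against 7.73%). With quantile normalization 8 shifted up and 5 down. Npc1 shifted by 1.38 (SE 0.25, adjusted p = 0.00149). It had 7.27 and 7.38 in the polysomal pool of TGFβ-treated E1KD cells and 5.55 and 5.95 in the monosomal pool, against 7.27 and 7.10 in the polysomal and 6.99 and 6.98 in the monosomal pool of untreated E1KD cells. The subunits Atp6v1h (1.28), Atp6v1a (0.76), Atp6v1c1 (0.73) and Atp6v1b2 (0.53) shifted up, as did Ctsc, Ctsb, Ctsl, Asah1, Lipa, Ppt1 and Tpp1. Tfeb (-1.02) and Atp6v0b (-0.72) shifted down. Of 4 further V1 subunits none shifted up and 2 shifted down, Atp6v1e2 by -0.845 and Atp6v1f by -0.48. The accessory protein Atp6ap2 shifted up by 0.84.

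The difference between the lines in the shift was again tested itself. In E1KD cells the shift was lower than in NMuMG cells for 12 genes (30.8%, against 23.5% of all probe sets) and higher for 5 (12.8%, against 13.1%). With quantile normalization 12 were lower and 9 higher. Among the lower ones were Ctsc (-1.91), Lipa (-1.63), Ctsf (-1.57), Ctsl (-1.50), Atp6v1a (-1.33) and Atp6v1b2 (-1.26). The higher ones were Gaa (1.99), Naglu (1.64), Atp6v0d1 (1.05), Mcoln1 (0.88) and Ctsa (0.68). Tfeb, at -0.03 (adjusted p = 0.923), gave no such difference.

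The further lysosomal genes showed shifts in NMuMG cells of the same order. Of 23 other hydrolases and activators 12 shifted up and 8 down (median 0.65), with Ggh (γ-glutamyl hydrolase) at 3.01. Of 18 other membrane proteins 3 shifted up and 8 down (median -0.27). Of 16 sorting genes 8 shifted up and 5 down, and the 2 of largest shift both belong to the enzyme that makes the mannose 6-phosphate tag, Gnptab at 3.62 and Gnptg at -2.86. Of 14 regulators 9 shifted up and 5 down (median 1.34), with Rheb, the GTPase that activates mTORC1, at 2.87. Of 20 autophagy genes 8 shifted up and 8 down, beside 40.1% up and 30.3% down of all probe sets, and of 9 further pump subunits 1 shifted up and 3 down.

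The immunoprecipitates asked which transcripts came down with hnRNP E1. Which of the 4 α-hnRNP E1 libraries had TGFβ is labelled in conflicting ways. The titles give TGFβ to libraries 14A and 13B and no TGFβ to 13A and 14B, while the sample descriptions name TGFβ for 14A and 14B. Over all probe sets the A minus B differences of the titled control and TGFβ conditions correlated at -0.59. Libraries of the same number were thus more alike than libraries of the same title. Which label is right was not tested. The difference between the antibodies over both treatments does not depend on the labels, but its error does. With the libraries as titled, 1 of the 39 genes was higher with α-hnRNP E1 than with IgG (2.56%, against 14% of all probe sets) and 11 were lower (28.2%, against 11.7%). With the libraries by number (13 without TGFβ, 14 with it) 3 were higher (7.69%, against 21.6%) and 24 were lower (61.5%, against 20.5%). The median difference was -0.26 for the set and -0.01 for all probe sets. As titled, the count of 12 was 1 without the first untreated IgG library, 2 without the second untreated or the first TGFβ-treated one and 3 without the second TGFβ-treated one.

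Npc2 and the membrane glycoproteins Lamp2 and Lamp1 were among the lowest. Npc2 had 11.73, 12.08, 11.45 and 11.85 with α-hnRNP E1 and 12.77, 12.53, 12.66 and 12.63 with IgG, a difference of -0.87 (SE 0.13, adjusted p = 0.00381). Lamp2 had 9.05, 9.89, 9.52 and 9.43 with α-hnRNP E1 and 10.22, 10.26, 10.29 and 10.31 with IgG (difference -0.80). Lamp1 had 11.08, 10.98, 10.56 and 11.20 with α-hnRNP E1 and 11.57, 11.60, 11.63 and 11.60 with IgG (difference -0.65). The libraries of the antibodies did not overlap for any of these 3. Ctsa (-0.68), Scarb2 (-0.49), Asah1 (-0.45), Hexa (-0.39, near 5.52 with α-hnRNP E1), Gaa (-0.36), Ctsd (-0.35), Ctsh (-0.34, below 5.52 in all 8 libraries) and Man2b1 (-0.26) were also lower. All other probe sets of Npc2, Lamp2 and Scarb2 were lower too. Second probe sets of Ctsa, Gaa and Ctsh gave 0.07, 0.05 and 0.20 and did not pass.

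Ctsb was the gene that was higher with α-hnRNP E1. It had 9.21, 9.08, 9.02 and 9.33 with α-hnRNP E1 and 8.64, 8.62, 8.84 and 8.76 with IgG, a difference of 0.45 (SE 0.09, adjusted p = 0.0129) or 1.36-fold. The 4 other Ctsb probe sets gave -0.12 to 0.00 and did not pass, so that the increase rests on 1 of 5 probe sets. The 6 V1 subunits of the set ran from -0.24 to 0.25, and none passed as titled. By number Atp6v1h (0.25) and Atp6v1a (0.24) were higher. Of the further lysosomal genes, 10 of 23 hydrolases and activators were lower with α-hnRNP E1 and none was higher, and of 16 sorting genes 6 were higher and 2 lower.

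**Figure D5:**
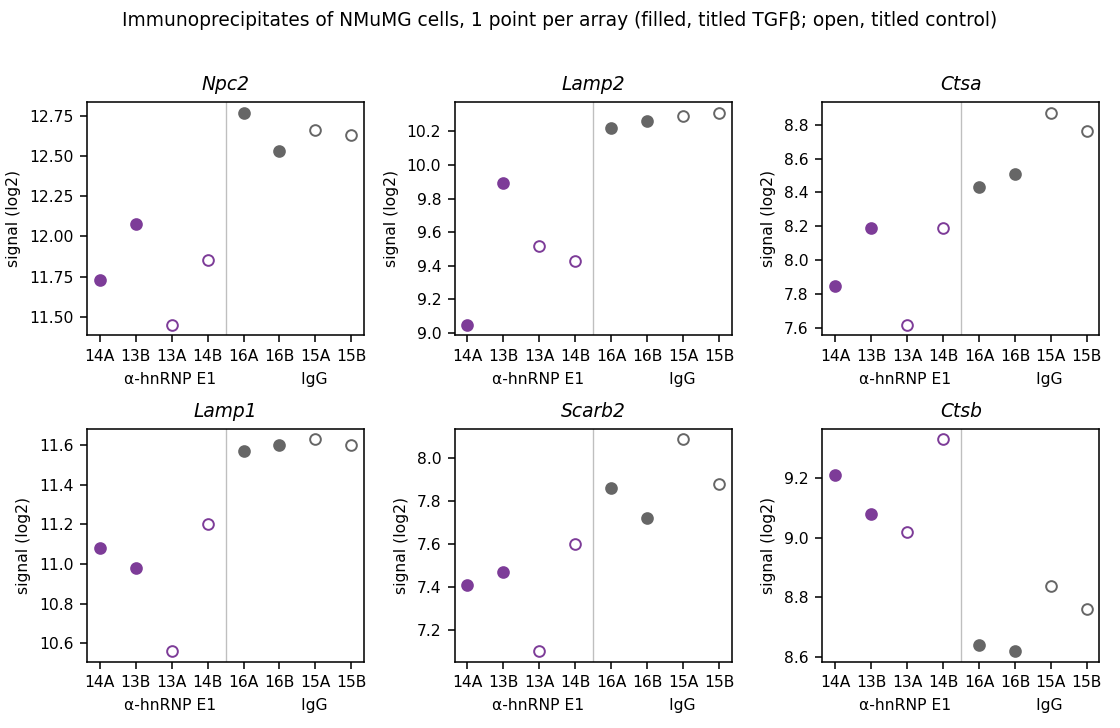
Log2 signal (vertical axes) of Npc2, Lamp2, Ctsa, Lamp1, Scarb2 and Ctsb in each of the 8 immunoprecipitates of NMuMG cells, named by the number and letter of their titles (horizontal axes), with α-hnRNP E1 on the left and IgG on the right of each panel. All 4 α-hnRNP E1 points lie below the 4 IgG points for the first 5 genes and above them for Ctsb.

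TGFβ changed none of the 39 genes within the IgG libraries (0.00393% of all probe sets passed), where 7 had an unadjusted p under 0.05. It changed none within the α-hnRNP E1 libraries as titled (0% of all probe sets passed), where none had an unadjusted p under 0.05. Of all 25432 probe sets 403 had one as titled and 7195 by number. By number 2 of the 39 were higher with TGFβ (5.13%, against 6.09% of all probe sets) and 2 were lower (5.13%, against 8.60%). Ctsf had 5.27 and 4.94 in libraries 14A and 14B and 6.15 and 6.04 in 13A and 13B, a difference of -0.99. The signals in 14A and 14B are below 5.52, so the size of this difference is not a measurement. Ctsl had 10.73 and 10.97 in 14A and 14B and 11.42 and 11.61 in 13A and 13B, a difference of -0.67. Neu1 (0.63) and Atp6v1a (0.30) were higher by number.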

How the data were processed

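The data are 32 Affymetrix mouse expression arrays with 45101 probe sets. The authors summarized the scans by RMA in Affymetrix Expression Console, and the deposited values are log2 signals with 2 decimals, which were used without another normalization. Depth has no meaning for arrays, and 2 arrays per condition limit the precision. Arrays were grouped by title and source name.

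Probe sets above 5.52 (the median over the whole table) on 8 or more arrays were kept. The 64 control probe sets were left out. Genes are named as in the platform annotation, in which 34958 probe sets have 1 symbol and 932 have several.

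Differences were tested 2-sided with lmFit, contrasts.fit and eBayes of limma (version 3.58.1, under R version 4.3.3) over all 25432 probe sets kept, in 1 fit of 24 arrays and 1 of the 8 immunoprecipitates, with Benjamini-Hochberg adjustment per comparison. The comparisons share arrays. The procedure was tested on simulated data. Any member could be named. Array values were given for up to 5 per comparison and direction, of largest change among those that passed, with Tfeb, Grn, Ctsl, Ctsd, Ctsb and Lamp1 in total RNA and, from other lists, up to 3 genes of largest change were named. The members and lists were chosen with earlier results of these data known. Alternatives were other filters, fits and scalings, the mean of a gene's probe sets, a replicate block, the α-hnRNP E1 libraries by number, and leaving out each array. Replicates of a condition correlated at 0.974 to 0.998 over probe sets. Python 3.11.15, pandas 2.3.3, numpy 2.4.6 and matplotlib 3.10.9 were used.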

Additional observations from a re-analysis of the deposited data

Results flagged for a closer look

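The following genes responded differently in E1KD and NMuMG cells by a test of the difference itself (limma interaction, E1KD minus NMuMG, log2). For the TGFβ change of total RNA the differences were -1.23 for Npc1, -0.99 for Mcoln1, -0.91 for Naglu, -0.68 for Psap, -0.63 for Ctsb, -0.62 for Tpp1, -0.48 for Atp6v1b2, -0.44 for Grn, -0.39 for Npc2 and 0.79 for Ctsh.

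For the polysome shift with TGFβ the hydrolases and cathepsins gave -1.91 for Ctsc, -1.63 for Lipa, -1.57 for Ctsf, -1.50 for Ctsl, -1.07 for Ctsh, -1.01 for Ppt1, -0.78 for Asah1, -0.59 for Tpp1, 0.68 for Ctsa, 1.64 for Naglu and 1.99 for Gaa. The pump subunits gave -1.33 for Atp6v1a, -1.26 for Atp6v1b2, -0.79 for Atp6v1c1 and 1.05 for Atp6v0d1. The membrane proteins gave -0.90 for Lamp2 and 0.88 for Mcoln1.

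Both values of Ctsh rest on NMuMG signals below 5.52, the level of the filter, in total RNA and in the pools of TGFβ-treated cells. Ctsf lay close to that level in the pools of untreated E1KD cells, at 5.46 to 5.72.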

How the results depend on the processing

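Of 232 differences called for single genes, 166 kept their call whichever 1 array was left out and 164 under every other alternative, and no called difference changed sign without an array. Signs turned in 2 cases, Gla for TGFβ in E1KD total RNA (-0.002 as the mean of its probe sets, adjusted p = 0.995) and Naglu between the pools of untreated NMuMG cells (0.063 with quantile normalization, adjusted p = 0.757). Quantile normalization moved the median of all probe sets from -0.14 to 0.11 for the pools of untreated NMuMG cells and from 0.09 to -0.16 for their polysome shift.

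The 1 gene called for TGFβ in NMuMG total RNA became 0 without the filter, 2 with the mean of probe sets, with the intensity trend or with the crossed pairing, and 5 in a fit of the arrays compared. In a fit of the arrays compared, 11 genes passed for the pools of TGFβ-treated NMuMG cells and 11 for the difference in shift. With the mean of probe sets 20 passed for the pools of untreated E1KD cells. For α-hnRNP E1 against IgG 20 passed in 1 fit of all arrays, 19 with scaling on Actb and Gapdh and 27 by number. For TGFβ within the IgG libraries 1 passed in 1 fit of all arrays and 5 by number, and within α-hnRNP E1 libraries 4 by number.

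Without 1 array the counts called ran from 0 to 2 for TGFβ in NMuMG total RNA, from 9 to 22 in E1KD total RNA (9 without the second untreated E1KD array), from 6 to 12 for their difference (6 without either NMuMG array of each treatment, either untreated E1KD array or the first TGFβ-treated one), and from 1 to 17 for α-hnRNP E1 against IgG (1 to 3 without each IgG library).

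Letters A and B were not taken as pairs in the main fit. Their differences correlated at -0.38 to 0.32 between conditions of the 24 arrays, with a median of 0.065. Of 66 pairs of conditions 21 were over 0.1, so some shared part of the letters is not excluded. The replicate block gave 1, 19, 11, 17, 20, 30, 25, 13, 28, 33, 15 and 17 genes for the 12 comparisons of those arrays in the order of total RNA, pools and shifts, and 10, 0 and 0 for the immunoprecipitates. With 1 crossed pairing added after the data were seen (correlation -0.59 between the α-hnRNP E1 conditions), 13 passed for α-hnRNP E1 against IgG.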
